A study of Mus musculus with 4 samples.

Results

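Cytotoxic lymphocytes kill by releasing granules. Perforin (Prf1) forms pores in the membrane of the target, and granzymes are the serine proteases that pass into it and cleave its proteins. Nkg7 is a membrane protein of the granules that helps their release. Natural killer (NK) cells hold RNA of many of these genes at rest, whereas CD8 T cells mostly raise it after activation. All values below are RNA counts, and the protein content of granules was not measured. The 6 genes described here are the granzymes Gzma, Gzmb, Gzmk and Gzmm, the pore former Prf1, and Nkg7, out of 32285 genes in each matrix. They were chosen by name for their role in granule killing and not by their values. Their counts were read in CD4 T, CD8 T, NK and plasmacytoid dendritic cells, which were set apart by markers that include none of the 6.

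The mice were C57BL/6J animals aged 6 to 8 weeks that had received MA9 leukaemia cells, mouse blood progenitors transformed by the fusion gene MLL-AF9. The leukaemia cells carried a doxycycline-inducible hairpin, either a control (Ctrl) or one against Prmt9 (shPrmt9), an arginine methyltransferase. All animals drank doxycycline for 7 days. Bone marrow (BM) and spleen cells were then captured in droplets for single-cell RNA-seq, and every transcript was counted by its unique molecular identifier (UMI). The lymphocytes belong to the host, so the hairpin was not directed at them. The 4 groups, marrow and spleen with either hairpin, were a single library each. The study describes 1 representative mouse per hairpin as the source of both tissues, so marrow and spleen values are not independent repeats. There was therefore no replicate, no test was made, and the library and the condition cannot be told apart. All intervals are 95% and cover counting error alone.

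The 4 libraries gave 7545 to 10175 usable cells with median depths of 6305 to 10383 UMIs, and 15 to 35 barcodes were shared by any pair of libraries. Over all cells, Prmt9 was counted at 10.5 and 6.92 CPM (UMIs per 1e+06 UMIs of the cells) in BM-Ctrl and BM-shPrmt9, and at 13.1 and 7.05 CPM in the spleen pair. Among host cells the order varied, but the intervals lay apart only in the CD4 and CD8 T cell gates of spleen, both lower in shPrmt9. Prmt9 was at 13.5 and 11.9 CPM in marrow CD8 T cells and at 14.6 and 9.02 CPM in those of spleen, but at 12.6 and 53.5 CPM in marrow CD4 T cells, 19.6 and 59.6 CPM in marrow NK cells and 11.6 and 13.5 CPM in spleen NK cells, the latter 3 pairs from 2 to 19 UMIs each. In spleen CD4 T cells it was at 21.6 CPM (16.5–27.8) and 9.61 CPM (7.30–12.4). For spleen CD8 T cells the intervals were 12.2–17.2 and 7.50–10.8 CPM. The reason for lower Prmt9 in these host cells was not tested. The CD8 T gate held 163, 100, 950 and 1110 cells in BM-Ctrl, BM-shPrmt9, Spleen-Ctrl and last Spleen-shPrmt9, an order kept in every list of 4 values given for libraries. The NK gate held 36, 9, 70 and 141 cells, the CD4 T gate 28, 20, 421 and 731, and the plasmacytoid gate 118, 16, 4 and 0. All 8 of 8 T cell markers that the gates did not use had UMIs in both T cell gates of each library. They also had UMIs in each NK gate, so presence alone does not set the gates apart. Summed, they were at 3192 CPM or more in the T cell gates and at 1489 CPM or less in the NK gates. The 7 NK markers were at 4527 CPM or more in the NK gates and at 1010 CPM or less in the T cell gates. In the plasmacytoid gate these NK markers were also high, at 3455 and 3122 CPM in marrow and 5797 CPM in Spleen-Ctrl. MA9 markers summed to at most 6.52 CPM in the CD4 T, CD8 T and NK gates.

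The genes are placed here on the mouse build GRCm38 (GENCODE vM21). Gzma (ENSMUSG00000023132) is at chr13:113093825-113100981 and Gzmk (ENSMUSG00000042385) at chr13:113171608-113225908, both on the minus strand. Gzmb (ENSMUSG00000015437) is at chr14:56258838-56262260 on the minus strand, and Nkg7 (ENSMUSG00000004612) at chr7:43437073-43438249 on the plus strand. Prf1 (ENSMUSG00000037202) at chr10:61297833-61304680 and Gzmm (ENSMUSG00000054206) at chr10:79689020-79695261 are on the plus strand. All UMIs are counts of a whole gene from its 3′ end, so that no exon can be told from another.

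Gzmb and Nkg7 are the pair that moved apart in spleen CD8 T cells, and the bases before their starts are given for that reason. RUNX factors are known regulators of cytotoxic genes, and their core motif TGTGGT or its complement ACCACA is in capitals. The windows come from RefSeq on GRCm38.p6, chr14:56262335-56262584 on the minus strand for Gzmb and chr7:43436888-43437072 on the plus strand for Nkg7, the latter stopped before the first base that GENCODE transcribes.
Gzmb: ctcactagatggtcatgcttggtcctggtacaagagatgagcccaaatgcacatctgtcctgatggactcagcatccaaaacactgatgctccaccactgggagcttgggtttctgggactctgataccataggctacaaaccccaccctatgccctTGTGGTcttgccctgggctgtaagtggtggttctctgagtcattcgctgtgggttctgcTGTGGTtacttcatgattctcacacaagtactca
Nkg7: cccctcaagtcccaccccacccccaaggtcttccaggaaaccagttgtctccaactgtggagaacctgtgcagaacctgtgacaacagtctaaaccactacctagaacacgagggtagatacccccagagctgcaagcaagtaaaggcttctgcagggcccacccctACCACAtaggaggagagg

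RefSeq windows were found for 6 of 6 genes, 7 windows in all since Gzmm has a pair of starts. In the 250 bases before each start, TGTGGT was found on either strand 2 times for Gzmb, at 93 and 34 bases before the start. It was found 1 time each for Nkg7 (83 bases), Prf1 (130 bases), Gzma (50 bases) and the first start of Gzmm (247 bases), and 0 times for Gzmk. Distances count from the RefSeq start, which for Nkg7 is at 43437138, past the end of the printed window at 43437072. Of all 32851 windows of this length, 14% hold these letters. The T-box letters GGTGTGA, held by 3.33% of windows, lay 13 bases before the start of Nkg7, 75 before that of Gzmk and 189 before the second start of Gzmm. The T-box match of Nkg7 lies outside the printed bases and within the gene as GENCODE places it. The interferon response element, GAAA and again GAAA with any pair of bases between, held by 2.98% of windows, were found for Gzma, 97 bases before its start. The motif matches did not overlap one another in any of these windows.

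Of the 4 gates, NK cells held the highest levels of Gzma, Prf1 and Nkg7 in every library. For Gzma, a granzyme that cleaves after basic residues, the NK gate was at 3505, 882, 6122 and 8050 CPM, against 75.7, 3.26, 8.09 and 10.2 CPM in CD8 T cells. Gzmb, which cleaves after aspartate and can activate caspases, was at 2842, 560, 6298 and 4844 CPM in NK cells and at 318, 416, 248 and 335 CPM in CD8 T cells. The ratio of NK to CD8 T cells for Gzmb was 25.4 in Spleen-Ctrl and 14.5 in Spleen-shPrmt9, but 1.35 (0.972–1.83) in BM-shPrmt9, where the order of these gates was not resolved by counting.

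Prf1 was at 2073, 608, 1414 and 1049 CPM in NK cells and at 52.4, 49.96, 18.6 and 20.8 CPM in CD8 T cells. Nkg7 was at 3505, 1584, 2365 and 2712 CPM in NK cells and at 698, 395, 390 and 126 CPM in CD8 T cells. Its NK to CD8 T ratio was 6.06 in Spleen-Ctrl and 21.4 in Spleen-shPrmt9. The gap thus widened in spleen for Nkg7 and narrowed for Gzmb.

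Gzmk, a granzyme known from memory CD8 T cells, had 0, 0, 0 and 3 UMIs in NK cells and 47, 53, 19 and 38 UMIs in CD8 T cells, whose gates held far more UMIs in all. In marrow its level was higher in CD8 T cells, with NK to CD8 T ratios of 0 (up to 0.305) in BM-Ctrl and 0 (up to 0.791) in BM-shPrmt9. In spleen the order was not resolved, at 0 CPM (up to 3.90) in NK and 2.05 CPM (1.23–3.20) in CD8 T cells of Ctrl, and at 2.13 CPM (0.439–6.22) and 2.76 CPM (1.96–3.79) in those of shPrmt9. The 0 of 36 NK cells in BM-Ctrl allow a share of cells with a Gzmk UMI of up to 8.33%, and the 0 of 70 in Spleen-Ctrl up to 4.29%, which limits detection and not expression. Gzmm, a granzyme that cleaves after methionine or leucine, had 2, 0, 5 and 6 UMIs in NK cells and 9, 4, 29 and 33 in CD8 T cells, so its order was not detectable at this depth.

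**Figure D1:**
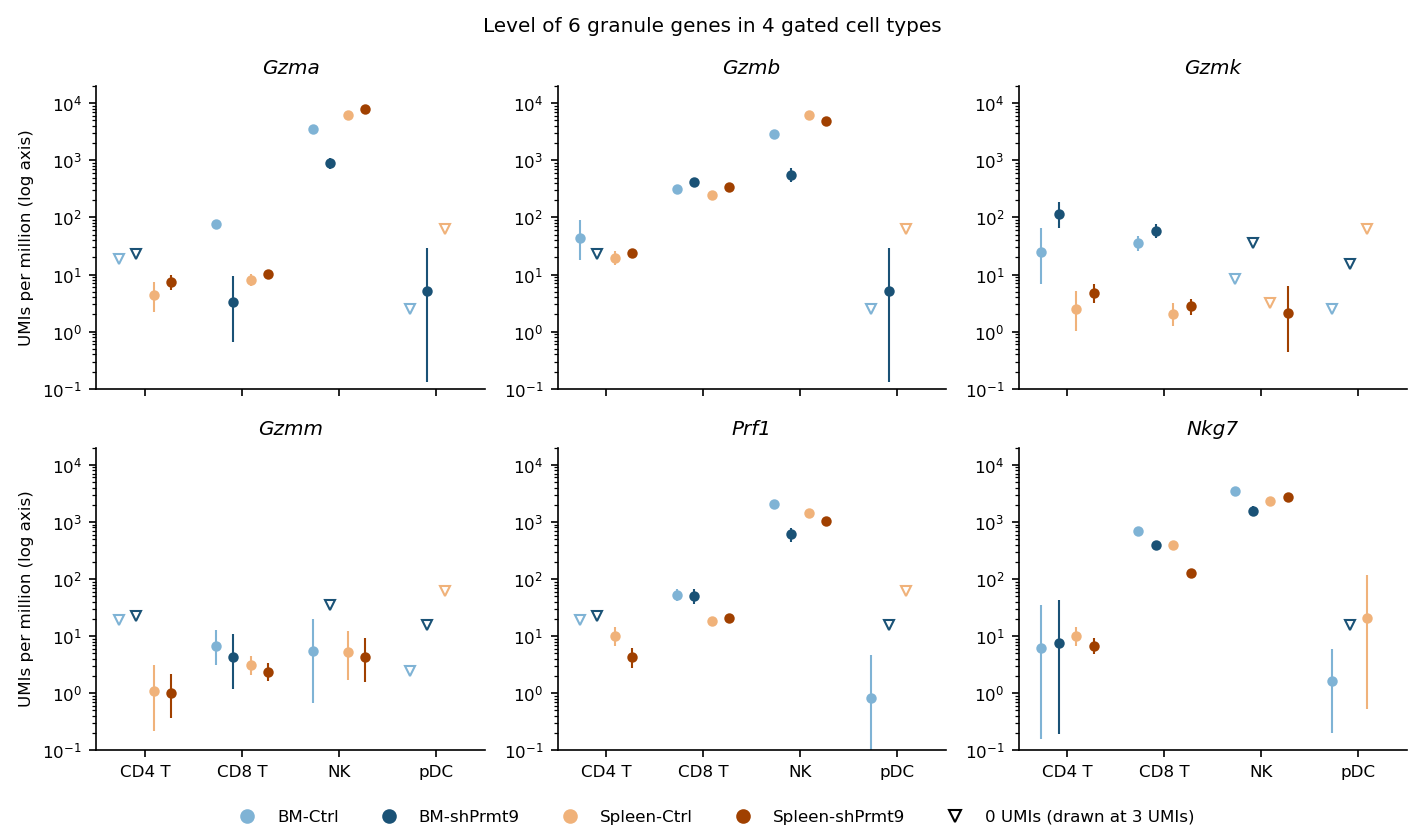
Level of each gene in CPM (log axis) in the CD4 T, CD8 T, NK and plasmacytoid dendritic cell gates of the 4 libraries, with exact Poisson 95% intervals over the summed UMIs of each gate and open triangles, drawn at 3 UMIs, where a sum was 0. NK points lie above CD8 T points for Gzma, Prf1 and Nkg7 in all 4 libraries. For Gzmk the CD8 T points lie above NK cells in marrow, and in spleen the intervals overlap.

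Background was read in cells that should lack these genes. In B cells thinned to 2000 UMIs each, at most 0.871% were positive for Gzmb, at most 0.445% for Nkg7 and at most 0.458% for Gzma in any library. In erythroid cells the highest share was 1.63%, for Gzmb in Spleen-Ctrl. Median depths of the B cell gate were 4792, 10791, 6307 and 16743 UMIs before thinning, and those of the CD8 T gate 7744, 8082, 8419 and 10982. Thinned shares in CD8 T cells were 29.2%, 15%, 25.8% and 23.6% for Gzmb and 62.1%, 33.0%, 40.0% and 15.6% for Nkg7, all above the B cell share. Thinning left out 2, 0, 0 and 4 CD8 T cells and 11, 2, 44 and 10 B cells that were too shallow. Before thinning these were 54.0%, 31.0%, 58.8% and 52.1% for Gzmb and 85.9%, 63.0%, 73.6% and 39.6% for Nkg7. Gzma shares in spleen CD8 T cells, 0.842% and 1.90% after thinning, stood beside B cell values of 0.368% and 0.458%. The intervals overlapped in Ctrl (0.364–1.65% and 0.222–0.574%) and did not in shPrmt9 (1.18–2.89% and 0.168–0.993%). Prf1 was found in 11.8%, 8.0%, 3.58% and 3.71% of thinned CD8 T cells.

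In spleen CD8 T cells, Nkg7 was lower and Gzmb higher in shPrmt9 than in Ctrl. Nkg7 had 3617 UMIs in Spleen-Ctrl (390 CPM, 378–403) and 1739 in Spleen-shPrmt9 (126 CPM, 121–133), a ratio of 0.324 (0.306–0.343). Gzmb had 2301 UMIs (248 CPM, 238–259) and 4604 UMIs (335 CPM, 325–345), a ratio of 1.35 (1.28–1.42). No single cell carried either result. The highest cell held 2.49% and 1.90% of the Nkg7 UMIs and 4.78% and 5.26% of the Gzmb UMIs, and without it the ratios were 0.324 and 1.34.

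Of the 6 genes with at least 20 UMIs in both libraries together, 1 lay past 2-fold, Nkg7, which was lower. Of all 11284 genes so counted in these cells, 11.8% lay past 2-fold, 5.33% higher and 6.5% lower, and the median of all genes was −0.04 on the log2 scale. The other granule genes lay nearer to 1. Prf1 had 172 and 286 UMIs, a ratio of 1.12 (0.924–1.36), and Gzma 75 and 140 UMIs, a ratio of 1.26 (0.944–1.69). Gzmk had a ratio of 1.35 (0.758–2.47) and Gzmm one of 0.767 (0.451–1.31). The intervals of all 4 included 1. For Gzma this turned on 1 cell of Spleen-Ctrl with 34 of the 75 UMIs, since without the highest cells the ratio was 1.81 (1.26–2.66). Summed NK markers in this gate were 386 and 286 CPM and erythroid markers 207 and 1750 CPM, and their part in these ratios was not tested.

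The per-cell counts show where these sums came from. CD8 T cells with 0 Nkg7 UMIs made up 26.4% in Ctrl and 60.4% in shPrmt9 spleen, although depth was higher in the latter. Cells with 20 or more Gzmb UMIs were 13 of 950 (1.37%) and 47 of 1110 (4.23%), while the share of cells with any Gzmb UMI was 58.8% and 52.1%. Higher Gzmb in Spleen-shPrmt9 came with more UMIs per positive cell and not with a larger share of positive cells. After thinning that share was 25.8% and 23.6%. The numbers of UMIs per cell were not thinned, and median depth was 8419 UMIs in Ctrl and 10982 in shPrmt9. The part of depth in them was not tested. The tenth of CD8 T cells with the most UMIs held 56.1% and 68.3% of Gzmb and 43.0% and 65.4% of Nkg7. Their median in positive cells was 2 and 3 UMIs for Gzmb and 3 and 2 UMIs for Nkg7.

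Splitting the same cells by Gzmb showed lower Nkg7 in both classes. In spleen CD8 T cells with a Gzmb UMI, Nkg7 was at 423 and 180 CPM, a ratio of 0.425 (0.398–0.454). In those without, it was at 330 and 55.9 CPM, a ratio of 0.169 (0.149–0.192). Prf1 had a ratio of 1.48 (1.16–1.91) in the first class and 0.717 (0.524–0.984) in the second. The classes were set by unthinned Gzmb UMIs, so that which cells fall in each moves with the Gzmb level and with depth, and the class ratios do not follow the same kind of cell. Ctsw, a cathepsin of cytotoxic cells, showed 0.991 (0.881–1.12) and 0.499 (0.414–0.600). After thinning, cells positive for both Gzmb and Nkg7 were 10.9% and 6.60%, for Gzmb alone 14.8% and 17.0%, for Nkg7 alone 29.1% and 9.04%, and for neither 45.2% and 67.4%. The intervals of the Nkg7-alone share were 26.2–32.1% and 7.42–10.9%.

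**Figure D2:**
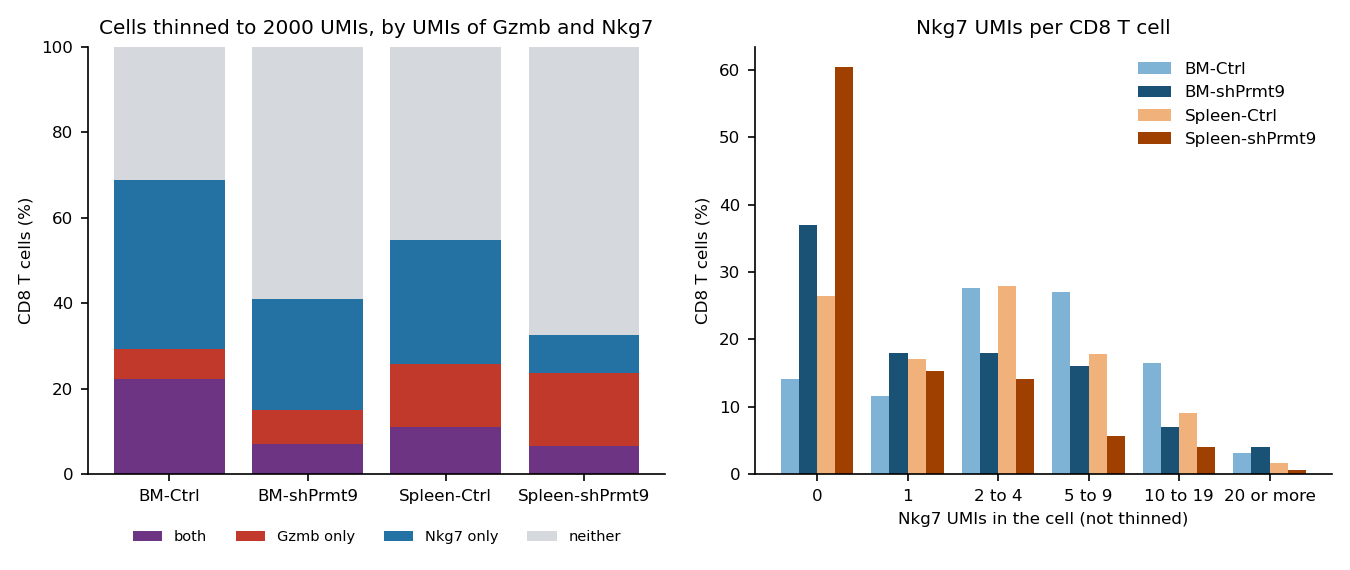
Shares of CD8 T cells (percent of cells thinned to 2000 UMIs) with UMIs of both Gzmb and Nkg7, of either one or of neither (left), and shares of unthinned CD8 T cells by their number of Nkg7 UMIs (right), in the 4 libraries. Cells with Nkg7 alone were 39.8% and 26.0% in BM-Ctrl and BM-shPrmt9 and 29.1% and 9.04% in the spleen libraries, and cells with 0 Nkg7 UMIs reached 60.4% in Spleen-shPrmt9.

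In bone marrow CD8 T cells, Nkg7 was also lower in shPrmt9. It had 932 UMIs in BM-Ctrl (698 CPM, 654–745) and 364 in BM-shPrmt9 (395 CPM, 356–438), a ratio of 0.566 (0.5001–0.640), short of 2-fold. Without the highest cell, which held 2.79% and 8.52% of the UMIs, it was 0.532. Within cells with a Gzmb UMI the ratio was 0.757 (0.640–0.893), and within those without it 0.506 (0.418–0.611).

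Gzmb in bone marrow CD8 T cells turned on 1 cell. It had 425 UMIs in BM-Ctrl and 383 in BM-shPrmt9, or 318 and 416 CPM, a ratio of 1.31 (1.13–1.503). A single cell of BM-shPrmt9 held 251 of the 383 UMIs, 65.5%, at a depth of 47814 UMIs, and it also held 198 Ifng UMIs and 146 UMIs of neutrophil markers. In BM-Ctrl the highest cell held 24 UMIs, 5.65%. With the highest cell of each library left out, the ratio was 0.497 (0.405–0.607), on the other side of 1. Thinned shares of positive cells, which 1 cell cannot move far, were 29.2% (22.3–36.9) and 15% (8.65–23.5).

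Gzma in these cells was also carried by a few. BM-Ctrl had 101 UMIs in 8 cells, 71 of them in 1 cell, and BM-shPrmt9 had 3 UMIs in 3 cells. The ratio was 0.0431 (0.00873–0.129), and 0.0966 without the highest cell. It was the 1 gene of 5 with at least 20 UMIs that lay past 2-fold, where 8.83% of all genes did, 5.57% higher and 3.26% lower. When cells with UMIs of other lineages were kept in the gate, BM-shPrmt9 had 76 Gzma UMIs and the ratio was 1.08, so this call rested on those cells being left out. Prf1 was even at 70 and 46 UMIs, a ratio of 0.953 (0.642–1.40). Gzmk had 47 and 53 UMIs, a ratio of 1.63 (1.08–2.47).

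**Figure D3:**
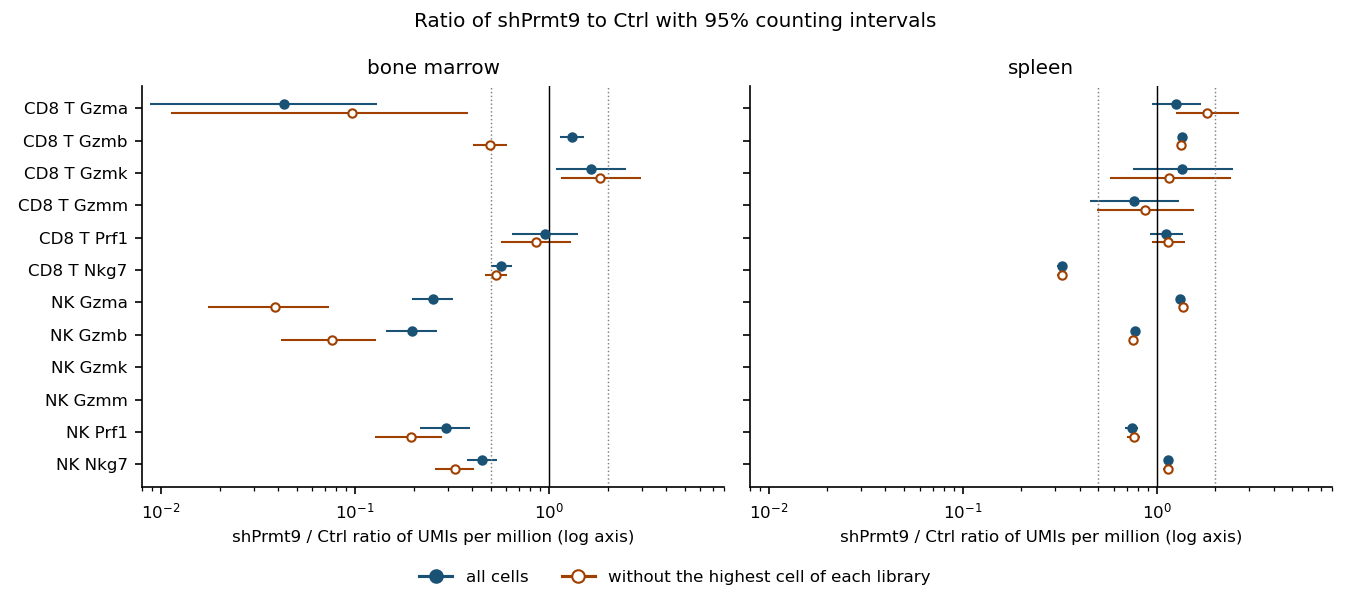
Ratio of shPrmt9 to Ctrl (log axis) for each gene in CD8 T and NK cells of each tissue where both libraries together had at least 20 UMIs, with exact 95% intervals from counts, over all cells (filled) and with the highest cell of each library left out (open). Dotted lines mark 0.5 and 2. Nkg7 in spleen CD8 T cells stays at 0.324 in both, while Gzmb in bone marrow CD8 T cells is at 1.31 with and 0.497 without its highest cell.

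Gzmk marked few CD8 T cells, 16, 16, 8 and 13. Nkg7 was at 1657, 1223, 1612 and 353 CPM in CD8 T cells with Gzmk and at 632, 284, 381 and 124 CPM in those without it. Prf1 was at 185, 128, 153 and 137 CPM with Gzmk and at 43.3, 39.4, 17.5 and 19.6 CPM without it. Gzmk-positive cells thus held more Nkg7 and Prf1 in all 4 libraries. Gzma was at 1135, 9.13, 167 and 43.3 CPM with Gzmk, and its 71-UMI cell of BM-Ctrl was 1 of these cells. Within Gzmk-positive cells the ratio of shPrmt9 to Ctrl for Nkg7 was 0.738 (0.579–0.941) in bone marrow and 0.219 (0.154–0.309) in spleen.

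Bone marrow and spleen also differed within the control libraries. In CD8 T cells the spleen to marrow ratio was 0.107 (0.0782–0.146) for Gzma, 0.0582 (0.0323–0.101) for Gzmk, 0.354 (0.267–0.474) for Prf1, 0.559 (0.520–0.601) for Nkg7 and 0.780 (0.703–0.867) for Gzmb. All 5 were lower in spleen. For Gzma, 1 cell held 71 of 101 UMIs in BM-Ctrl and 1 cell 34 of 75 in Spleen-Ctrl. Without these cells Gzma was at 22.6 and 4.46 CPM, a smaller difference. In NK cells Gzma and Gzmb were higher in spleen, at 1.75 (1.64–1.86) and 2.22 (2.07–2.37), and Prf1 and Nkg7 lower, at 0.682 and 0.675. In the shPrmt9 libraries the order was the other way for Prf1 and Nkg7 in NK cells, at 1.73 (1.31–2.33) and 1.71 (1.44–2.05), over 9 marrow cells, and for Gzma in CD8 T cells, at 3.12 (1.05–15.3), over 3 marrow UMIs. For CD8 T cells Gzmk, Prf1, Nkg7 and Gzmb were lower in spleen there too, at 0.0480, 0.416, 0.320 and 0.805. Each value rests on 1 library per tissue.

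Spleen NK cells kept all 4 main genes at high levels in both libraries. Gzma had 5796 and 11339 UMIs, a ratio of 1.31 (1.27–1.36), and Nkg7 2239 and 3820 UMIs, a ratio of 1.15 (1.09–1.21). By UMIs per cell, without scaling to the gate's total, these ratios were 0.971 and 0.847. Gzmb had 5962 and 6823 UMIs, a ratio of 0.769 (0.743–0.797), and Prf1 1339 and 1478 UMIs, a ratio of 0.742 (0.689–0.799). None of the 4 genes with at least 20 UMIs lay past 2-fold, where 15.7% of all genes did, 11.4% higher and 4.3% lower, and the median of all genes was 0.16 on the log2 scale. The highest cell held at most 9.26% of any of these sums.

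The share of spleen NK cells with a UMI, thinned, was 85.7% and 84.9% for Gzma, 94.3% and 93.5% for Nkg7, 87.1% and 75.5% for Gzmb and 81.4% and 76.3% for Prf1. Positive cells held a median of 74 and 34 Gzmb UMIs and 17 and 8 Prf1 UMIs, against 76 and 72 Gzma UMIs. Cells with 4 of the 6 genes after thinning made up 74.3% (62.4–84.0) and 60.4% (51.8–68.6) of the Ctrl and shPrmt9 libraries. The median depth of these NK cells was 11671 and 9011 UMIs before thinning.

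In bone marrow NK cells all 4 genes were lower in shPrmt9, but that gate held 9 cells. Gzma was at 3505 and 882 CPM, a ratio of 0.252 (0.196–0.318), Gzmb had a ratio of 0.197 (0.144–0.264), Prf1 0.293 (0.216–0.390) and Nkg7 0.452 (0.375–0.541). All 4 of the 4 genes with at least 20 UMIs lay past 2-fold, where 24.4% of all genes did and 12% were lower. Single cells carried 87.8% of the Gzma UMIs of BM-shPrmt9, 70.2% of Gzmb, 45.1% of Prf1 and 38.3% of Nkg7. Without the highest cells the ratios were 0.0385, 0.0760, 0.193 and 0.326.

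The 9 cells differed widely. The 1 with the most Nkg7 held 51 Nkg7, 7 Prf1, 6 Gzma and 0 Gzmb UMIs, and another held 65 Gzma, 31 Nkg7, 23 Prf1 and 5 Gzmb. A further cell held 33 Gzmb UMIs and 0 of Gzma. At the other end, 3 cells held at most 1 UMI each of the 4 genes together, and 1 cell with 4 Nkg7 UMIs held 5180 UMIs of neutrophil markers. Those 3 cells held 31, 10 and 7 UMIs of NK markers and 7, 13 and 19 of T cell markers. Il7r was found in 3 of the 9 cells, against 0 of 36 in BM-Ctrl, and Ccr7 in 3 against 1. Some cells of this gate may therefore not be NK cells. Summed neutrophil markers in the NK gate were 12728, 65340, 32.7 and 508 CPM, and NK markers 5743, 4527, 5293 and 4576 CPM. When cells with other-lineage UMIs were kept, the gate held 12 cells of BM-shPrmt9 and the Gzmb ratio was 1.5. The part of these markers in the result was not tested.

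**Figure D4:**
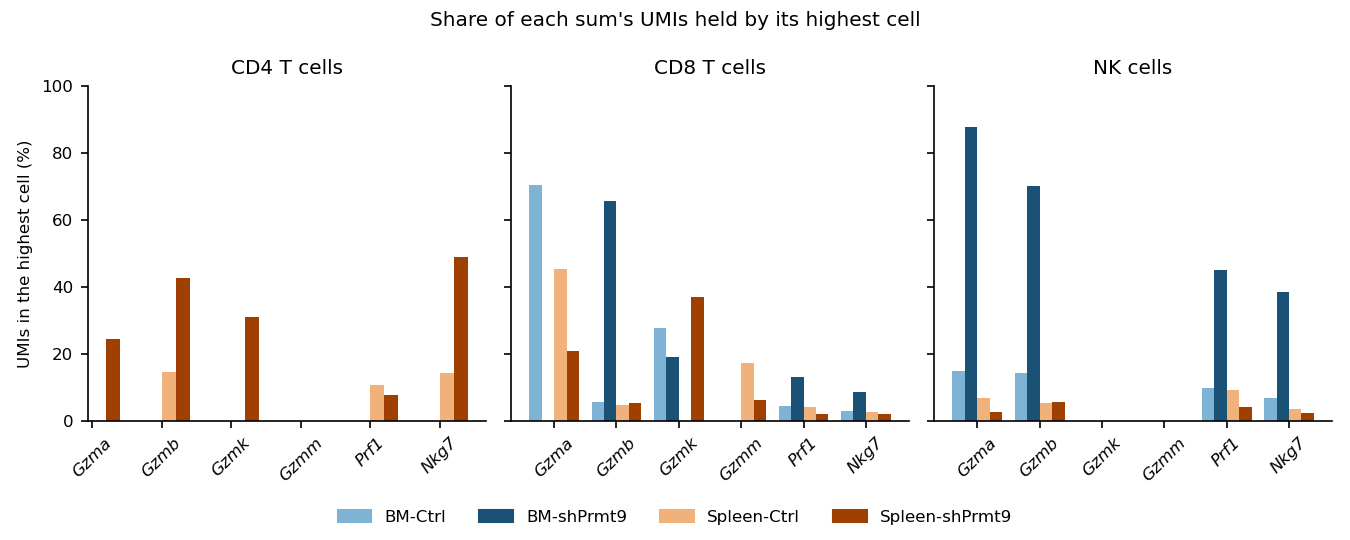
Percent of the UMIs of each gene that lay in its single highest cell, for CD4 T, CD8 T and NK cells of the 4 libraries, with a bar only where the sum was at least 20 UMIs. In BM-shPrmt9 the highest cell held 65.5% of Gzmb in CD8 T cells and 87.8% of Gzma in NK cells, and in spleen NK cells it held at most 9.26% of Gzma, Gzmb, Prf1 or Nkg7.

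CD4 T cells held little of any member, Gzmk in bone marrow apart. In spleen, Gzmb was at 19.8 and 24.0 CPM, Nkg7 at 10.1 and 6.80 CPM, Prf1 at 10.1 and 4.31 CPM, Gzma at 4.32 and 7.46 CPM and Gzmk at 2.52 and 4.81 CPM. The CD8 to CD4 ratio was 12.5 and 13.9 for Gzmb and 38.7 and 18.6 for Nkg7, but 0.814 (0.328–2.29) and 0.575 (0.345–0.966) for Gzmk. Prf1, with 28 and 26 UMIs, had a ratio of shPrmt9 to Ctrl of 0.428 (0.241–0.757) and was the 1 gene of 5 with at least 20 UMIs past 2-fold, where 13.5% of all genes were, 5.65% higher and 7.84% lower. With doublets kept it was 1.46. For Gzmb it was 1.21 (0.885–1.69). It was 0.813 with the highest cells left out, of which 1 held 62 of 145 UMIs in Spleen-shPrmt9 together with 8 UMIs of Foxp3, the factor of regulatory T cells. In bone marrow the CD4 T gate held 7 and 0 Gzmb UMIs and no member reached 20 UMIs, while 14.9% of the genes that did lay past 2-fold, 6.72% higher and 8.22% lower. Gzmk there had 4 UMIs in BM-Ctrl and 15 in BM-shPrmt9, or 25.3 and 115 CPM, in each library all in 1 cell.

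Plasmacytoid dendritic cells, known as producers of type I interferon, had few UMIs of these genes. Gzmb, known from human cells of this kind, had 0 UMIs in 118 cells of BM-Ctrl, which allows a share of cells with a UMI of up to 2.54%, and 1 UMI in 16 cells of BM-shPrmt9. Nkg7 had 2 UMIs and Prf1 1 UMI in BM-Ctrl. Spleen-Ctrl had 1 Nkg7 UMI in 4 cells, and Spleen-shPrmt9 had no cell in the gate. For comparison, 8 of 1131 B cells of BM-Ctrl had a Gzmb UMI. No member reached 20 UMIs in marrow plasmacytoid cells, where 16.7% of the genes that did lay past 2-fold, 5.35% higher and 11.3% lower.

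T cells with no coreceptor UMI, 113, 67, 469 and 755 cells, held fewer UMIs of Nkg7, Gzmb and Prf1 in shPrmt9 in both tissues. Nkg7 had 766 and 75 UMIs in bone marrow, a ratio of 0.125 (0.0971–0.158), and 433 and 71 in spleen, a ratio of 0.0826 (0.0633–0.106). Gzmb had ratios of 0.164 (0.118–0.225) and 0.430 (0.382–0.484), the latter 0.797 without the highest cell of each library, and Prf1 of 0.210 (0.120–0.348) and 0.105 (0.0721–0.150). Summed markers of innate-like T cells moved with these, at 384, 128, 156 and 17.8 CPM, and so did NK markers, at 2285, 1578, 332 and 139 CPM. Neutrophil markers were at 40874, 96734, 50.3 and 4784 CPM. Their part was not tested, and fewer cells of a type and less RNA per cell cannot be told apart within such a gate.

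Of the UMIs of a library, the 4 gates held 89.2% and 95.04% of Gzma in the spleen libraries but 67.5% and 22.4% in the bone marrow libraries. The same share was 77.3% and 85.0% in spleen and 61.3% and 21.2% in marrow for Gzmb, and 77.4% and 90.1% in spleen and 41.4% and 17.3% in marrow for Nkg7. Whole-library sums of these genes in bone marrow therefore lay mostly outside the T, NK and plasmacytoid gates in BM-shPrmt9. Gzmm lay outside them in 3 libraries, with 12.8%, 4.82%, 40.2% and 57.0% inside.

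**Figure D5:**
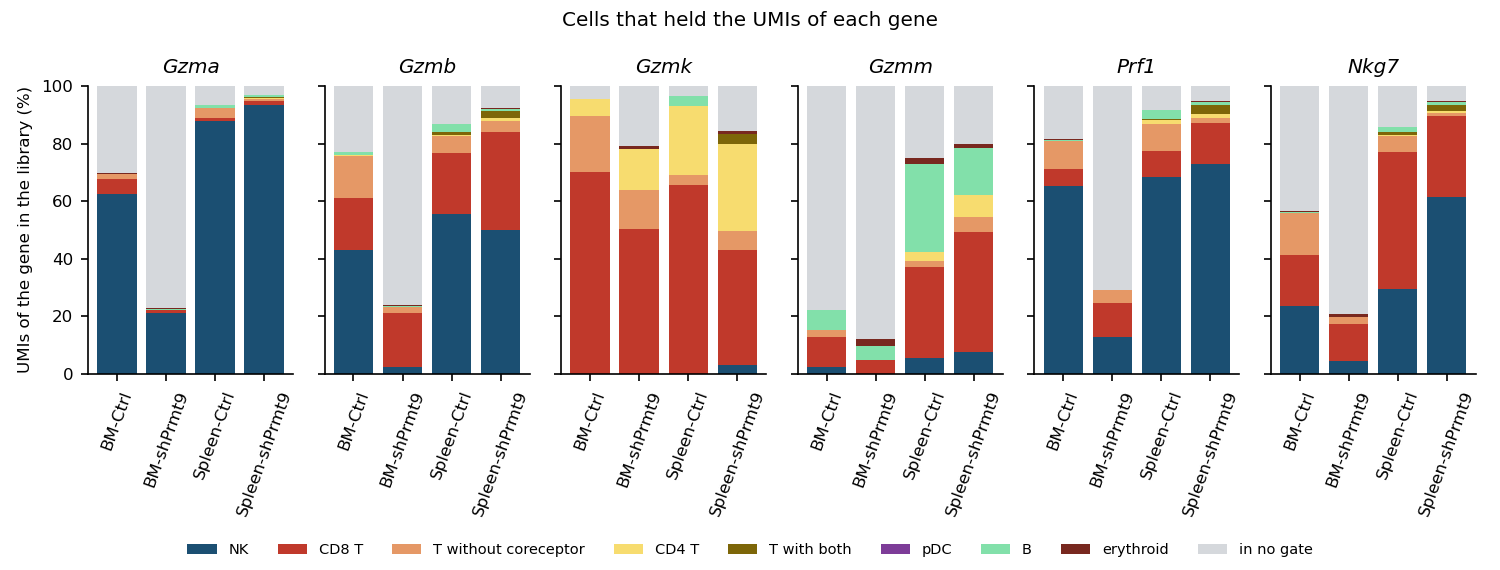
Percent of the UMIs of each gene found in each cell gate, in B and erythroid cells and in no gate, in the 4 libraries. In BM-shPrmt9 the CD4 T, CD8 T, NK and plasmacytoid gates together held 22.4% of Gzma, 21.2% of Gzmb and 17.3% of Nkg7, against 95.04%, 85.0% and 90.1% in Spleen-shPrmt9.

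Genes of granule biology were read in the same cells from lists chosen with earlier results of these data known. Beside these counts, 5.33% of all genes were past 2-fold higher and 6.5% lower in spleen CD8 T cells, 11.4% and 4.3% in spleen NK cells, 5.57% and 3.26% in marrow CD8 T cells and 12.3% and 12% in marrow NK cells, so that 1 gene of 8 to 12 is near the share of all genes. Of 12 genes for granule packing and release, 2 were past 2-fold higher in spleen CD8 T cells and 0 lower, with a list median of 0.00 on the log2 scale against −0.04 for all genes. Srgn, Stx11, Eomes and the serpins were chosen for naming after their values were seen. The 2 higher genes are Srgn, the proteoglycan core on which granule proteins are packed, with 4604 and 13901 UMIs, and Stx11, a syntaxin of granule fusion, with 43 and 269 UMIs. In spleen NK cells 1 was higher and 1 lower of 12, the lower being Ctsw at 183 and 100 UMIs, a ratio of 0.367 (0.285–0.471). In bone marrow CD8 T cells 0 were higher and 1 lower of 12, and in bone marrow NK cells 0 of 6.

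Of 5 granzyme-inhibiting or related serpins, 3 were higher and 1 lower in spleen CD8 T cells. Serpinb9b had 0 and 58 UMIs, 46.6% of the latter in 1 cell, and Serpinb1a, an inhibitor of neutrophil proteases, 63 and 19. In NK cells of spleen 0 of 4 passed 2-fold. Of 6 other granzymes (Gzmc to Gzmg and Gzmn), 1 reached 20 UMIs in spleen NK cells, Gzmc, which had 300 and 155 UMIs, a ratio of 0.347 (0.284–0.423). The highest cell held 18.3% of the Gzmc UMIs in Spleen-Ctrl and 59.4% in Spleen-shPrmt9.

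Of 8 transcription factors of effector cells, 1 was higher and 1 lower in spleen CD8 T cells, and in spleen NK cells 1 was higher. Eomes, which promotes cytotoxic genes, had 368 and 378 UMIs in spleen CD8 T cells, a ratio of 0.692 (0.598–0.801). Among 10 receptors with at least 20 UMIs there, 2 were higher and 1 lower. All 6 proliferation genes were lower in spleen CD8 T cells, but 89.9% of the 99 Mki67 UMIs and 86.4% of the 59 Birc5 UMIs of Spleen-Ctrl lay in 1 cell. A cell of that library with 71538 UMIs held 359 UMIs of proliferation genes, 34 of 75 Gzma UMIs and 90 of 3617 Nkg7 UMIs.

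Of the interferon response list, 4 of 4 genes lay past 2-fold higher in CD8 and CD4 T cells of both tissues, 3 of 3 in spleen NK cells, 1 of 1 in marrow NK cells and 2 of 3 in marrow plasmacytoid cells. Ifit1 had ratios of 24.9 (15.8–41.2) in marrow CD8 T cells and 10.4 (9.61–11.2) in spleen CD8 T cells. Of the other effectors, the chemokine gene Ccl5 had 4644 and 254785 UMIs in spleen CD8 T cells, or 501 and 18526 CPM, and a ratio of 6.15 (5.87–6.45) in spleen NK cells. Xcl1, another chemokine of these cells, had 575 and 51 UMIs in spleen NK cells, a ratio of 0.0596 (0.0439–0.0795). In bone marrow NK cells Ccl4 had 458 and 2 UMIs and Ccl3 86 and 2.

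In bone marrow CD8 T cells S1pr1, a receptor for exit into blood, had a ratio of 0.413 (0.331–0.512) and Cd226, an activating receptor, one of 0.418 (0.264–0.643). In spleen CD4 T cells Ccl5 had a ratio of 18.7 (17.3–20.2), Ly6c2 one of 12.6 (9.07–18.0) and Il18r1 one of 0.243 (0.185–0.318). Single cells carried much of the first 2 genes. The highest cell held 47.1% of the 703 Ccl5 UMIs of Spleen-Ctrl and 41.9% of the 1011 Ly6c2 UMIs of Spleen-shPrmt9. In plasmacytoid cells of bone marrow Irf7, the factor that drives interferon genes, had a ratio of 2.77 (2.21–3.46), with the members at 0 to 2 UMIs in the same cells.

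Patterns most alike were sought over 15 sums, those of the 4 gates in the libraries that held cells, among 9999 genes. Each is a Pearson correlation of log2(CPM + 10), given as a description since gates of a library share its depth and cells. Gzma was most like Klrb1c (0.987), Klra9 (0.977) and Klra4 (0.974), and Prf1 most like Klrb1c (0.979), Klre1 (0.978) and Trdc (0.972). Klrb1c and Klre1 helped to define the NK gate. Gzmb was most like Sytl3 (0.952), Nkg7 (0.945) and Chsy1 (0.927), and Nkg7 most like Eomes (0.961), Samd3 (0.945) and Gzmb (0.945). Gzmk was most like Smpdl3b (0.939), Pdcd1 (0.878) and A430093F15Rik (0.875). Its highest level, 115 CPM in CD4 T cells of BM-shPrmt9, was 15 UMIs of 1 cell. Gzmm was most like Btf3 (0.934), Smyd2 (0.926) and Tmem37 (0.892). Both genes had sums of few UMIs.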

How the data were processed

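Bone marrow and spleen cells of leukaemic mice were profiled with the 10x Genomics single cell 3′ v2 kit. The deposited matrices hold unnormalised UMI counts from the authors' Cell Ranger run, 6.1.1 per the submitters' processing notes and 6.0.2 per the file headers, on mm10. The gene annotation was not given in the sources used here. A cell was kept with 200 or more genes and no more than 20% of UMIs mitochondrial. Doublets were the highest Scrublet scores (scanpy 1.11.5) up to 0.8% per 1000 cells, 744, 999, 640 and 520 cells, since the tool's own threshold marked 125, 0, 1 and 183.

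T cells had at least 2 UMIs of Cd3d, Cd3e and Cd3g. CD8 T cells also had at least 1 of Cd8a and Cd8b1 and 0 of Cd4, and CD4 T cells the reverse. NK cells had at least 2 of Ncr1, Klrb1c and Klre1 and at most 1 Cd3 UMI. Plasmacytoid cells had at least 2 of Siglech and 1 of Klk1, Cox6a2, Ccr9 and Pacsin1. Cells with 3 or more UMIs of B cell, erythroid or myeloid markers were left out. UMIs were summed per gate and library, with exact Poisson, Clopper-Pearson and conditional intervals (scipy 1.17.1, numpy 2.4.6, pandas 2.3.3). CPM is relative to 1e+06 UMIs of the gate. A gene was past 2-fold with at least 20 UMIs in both libraries together. Limits for a count of 0 are 3 counts. For thinned shares each cell was drawn down to 2000 UMIs and shallower cells were left out. The scripts were tested on simulated data with known changes. edgeR 4.0.16 (R 4.3.3) gave TMM factors for an alternative scaling only.

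The members, gates and lists were chosen with earlier results of these data known. The text names all 6 members, up to 3 list genes at each end with at least 50 UMIs per gate and tissue, and the 3 genes most alike in pattern with at least 100 UMIs. Of 71 list genes, 70 were in the matrix. Alternatives tried were other gates, filters, scalings and the loss of the highest cell.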

Additional observations from a re-analysis of the deposited data

Results flagged for a closer look

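In NK cells the ratio of shPrmt9 to Ctrl lay on opposite sides of 1 in the 2 tissues for Gzma and Nkg7. For Gzma it was 0.252 in bone marrow and 1.31 in spleen. For Nkg7 it was 0.452 in bone marrow and 1.15 in spleen. By UMIs per cell the spleen ratios were 0.971 for Gzma and 0.847 for Nkg7, so the tissues then lay on the same side of 1. With 1 library per group the difference was not tested, and the bone marrow values rest on 9 cells of BM-shPrmt9.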

How the results depend on the processing

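No paired analysis was possible because each group had 1 library. Of 259 ratios of members under alternative settings, 22 lay on the other side of 1 from the reported value, 5 of them for a ratio past 2-fold and 17 for one within it. By size, 182 stayed within the counting interval. With other-lineage cells kept, the marrow ratios were 1.08 for Gzma in CD8 T and 1.5 for Gzmb in NK cells, and with gates on thinned counts 1.65 and 1.84. With doublets kept, Prf1 in spleen CD4 T cells was at 1.46. Nkg7 in CD8 T cells stayed below 1 in 11 of 11 alternatives in each tissue (0.357–0.736 in marrow, 0.277–0.436 in spleen), and Gzmb in spleen CD8 T cells above 1 in 11 of 11 (1.06–1.71). Gzmb in marrow CD8 T cells was above 1 in 7 of 11 (0.497–1.82).

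Members past 2-fold in spleen CD4 T cells (1 as reported) were 4 with doublets kept, 3 with other-lineage cells kept, 2 with thinned gates, 3 without the highest cell, 2 with TMM factors and 2 by UMIs per cell. In marrow CD8 T cells (1) they were 0 with other-lineage cells kept, 2 without the highest cell and 3 over T cells of all coreceptor states. In marrow NK cells (4) they were 1 with other-lineage cells kept and 2 with thinned gates. They were 3 in spleen CD8 T cells with thinned gates and 1 in marrow CD4 T cells with other-lineage cells kept. The settings with all coreceptor states, and NK cells with no Cd3 UMI, were chosen after seeing the data.

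All genes past 2-fold numbered 367, 1349, 664, 1336, 759, 1208 and 1160 in CD4 T (marrow, spleen), CD8 T (marrow, spleen), NK (marrow, spleen) and marrow plasmacytoid cells. With at least 1 UMI they were 5311, 5537, 4368, 5270, 6323, 4665 and 5724, and with at least 50 UMIs 97, 848, 269, 237, 596 and 429, spleen CD8 T cells left aside. The cause was not tested beyond the number of genes counted.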

Other observations

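Nkg7 and Gzmb were also counted in bone marrow cells outside the lymphocyte gates. Cells with at least 10 UMIs of basophil markers (Mcpt8, Cpa3, Fcer1a, Prss34) numbered 98 in BM-Ctrl and 137 in BM-shPrmt9, and none was found in spleen. Of these, 64 (65.3%, 55.0–74.6) and 89 (65.0%, 56.4–72.9) had Nkg7, with 454 and 715 UMIs or 346 and 227 CPM. Gzmb was found in 26 (26.5%) and 23 (16.8%) of them, with 162 and 102 UMIs, and Gzma in 0 and 0. Prf1 had 3 and 1 UMIs. The threshold and the markers of this group were chosen with the values in view.

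Cells with at least 3 UMIs of myeloid markers held 1709 Nkg7 UMIs in 358 of 4336 cells (8.26%) of BM-Ctrl and 1396 in 344 of 6189 cells (5.56%) of BM-shPrmt9. Gzmb had 330 UMIs in 48 cells (1.11%) of BM-Ctrl, 148 of them in 1 cell. It had 1411 UMIs in 68 of the 6189 cells (1.10%) of BM-shPrmt9, of which 1 cell held 469 (33.2%). The same groups held 473 and 255 Gzma UMIs, 179 and 119 of them in 1 cell, and 190 and 250 Prf1 UMIs, 79 and 117 in 1 cell. Whether these were myeloid cells or lymphocytes with myeloid UMIs was not tested. Spleen cells with at least 1 Cd3 UMI that fell in no gate, either with too few of them or with UMIs of another lineage, held 1248 Gzmb UMIs in 674 cells of Spleen-Ctrl and 513 in 740 cells of Spleen-shPrmt9, of which 1 cell held 387.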
